A study of Homo sapiens with 12 samples.

Results

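The genes described here are 48 genes of DNA replication and S phase, chosen by name: the helicase and its loaders, the polymerases, the sliding clamp, strand processing, nucleotide supply, entry into S phase and chromatin assembly. All 48 were found by symbol among the 59191 rows of the deposited table, and all 48 had enough signal to be tested. They were measured in Huh7, an established line of human liver cancer cells, with 3 libraries in each of 4 groups: both drugs together (the combination), disulfiram, thalidomide, and a solvent control whose columns are labelled DMSO. Disulfiram is an inhibitor of aldehyde dehydrogenases, and thalidomide acts through cereblon, which chooses the substrates of a ubiquitin ligase. All groups are the same cell line, for which the labels name no genetic change. The labels give neither the units of dose nor the length of treatment, and nothing says that the libraries of a group came from separate cultures, so a p-value here reflects the spread between libraries alone, which may be technical.

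A cell licenses its origins in G1, when the origin recognition complex, CDC6 and CDT1 load the ring of MCM2 to MCM7 onto DNA. In S phase CDC45 and the GINS complex turn that ring into the active helicase, the primase and polymerases copy both strands behind it, and PCNA, opened and closed by the RFC complex, holds the polymerases in place. Most of these genes are transcribed under control of the E2F factors and their partner RB1, so their messages are highest as cells enter S phase, and in adult liver most hepatocytes rest outside the cycle while hepatoma lines divide in culture.

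Values are TPM, a length-scaled share of all transcripts that the authors computed, so levels can be compared between genes. Fold changes are differences of log2(TPM + 1) with their standard errors from limma, fitted over the 12 libraries, and a gene was called when its Benjamini-Hochberg adjusted p over the 15352 genes tested fell below 0.05. Depth is unknown because TPM keeps no read count. All 13 hepatocyte and hepatoma markers had a mean of at least 1 TPM, and their sum was 4383 to 5470 TPM in the combination, 4789 to 4835 with disulfiram, 6398 to 8763 with thalidomide and 5250 to 7996 in control. Of the markers of other cells, 3 of 8 immune, 1 of 5 endothelial and 4 of 8 fibroblast markers reached a mean of 1 TPM, with MS4A1 and TEK at 0 throughout. The summed immune markers were 101 to 107 TPM in the combination, 75.9 to 148.5 with disulfiram, 122 to 172 with thalidomide and 117 to 178 in control. For the fibroblast markers the sums were 65.2 to 93.5, 61.5 to 74.4, 57.2 to 87.2 and 71.8 to 86.2 TPM, in the same order. The summed endothelial markers were 3.83 to 5.43 TPM in the combination and 3.52 to 7.42 TPM with disulfiram, against 1.66 to 2.51 TPM with thalidomide and 0.79 to 1.55 TPM in control. The part of any of these markers in the results was not tested. Libraries of the same group differed in their relation to GC content. Across genes, the rank correlation of a library's deviation from the mean of its own group with gene GC content was taken. It was -0.592, 0.664 and -0.368 in the combination libraries and -0.486, 0.600 and -0.300 in the disulfiram libraries. It ran from -0.390 to 0.476 in the thalidomide libraries and from -0.176 to 0.126 in control. The second combination and second disulfiram libraries, at 0.664 and 0.600, had the opposite sign to the others of their groups. Deviations from a group's own mean cancel within the group, so a mix of signs is largely built in. These values do not compare the groups with each other.

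A minority of the 48 genes, led by the MCM subunits of the helicase, were called lower in the groups that received disulfiram, and none of them was called with thalidomide alone. Of the 48 genes, 12 were called lower in disulfiram against control (25%), against 4.52% of all genes tested, and 0 were called higher, against 8.73%. The median log2 fold change of the 48 was -0.28, that of all genes was 0.09, and 43 of the 48 had a negative value. Among genes with a mean of at least 5 TPM, which left 47 of the members, 15 were lower with disulfiram, against 6.99% of 9670 genes. The same direction appeared when disulfiram was added to thalidomide, where 10 were called lower (20.8%), against 7.24% of all genes, and 2 higher, against 25% of all genes, with medians of -0.17 for the 48 and 0.22 for all genes. Against control, the combination had 14 called lower (29.2%), against 6.7% of all genes, and 1 higher, against 18.4%, with medians of -0.19 and 0.20. In bulk RNA, fewer cells in S phase and less of these messages per cell cannot be told apart.

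**Figure D1:**
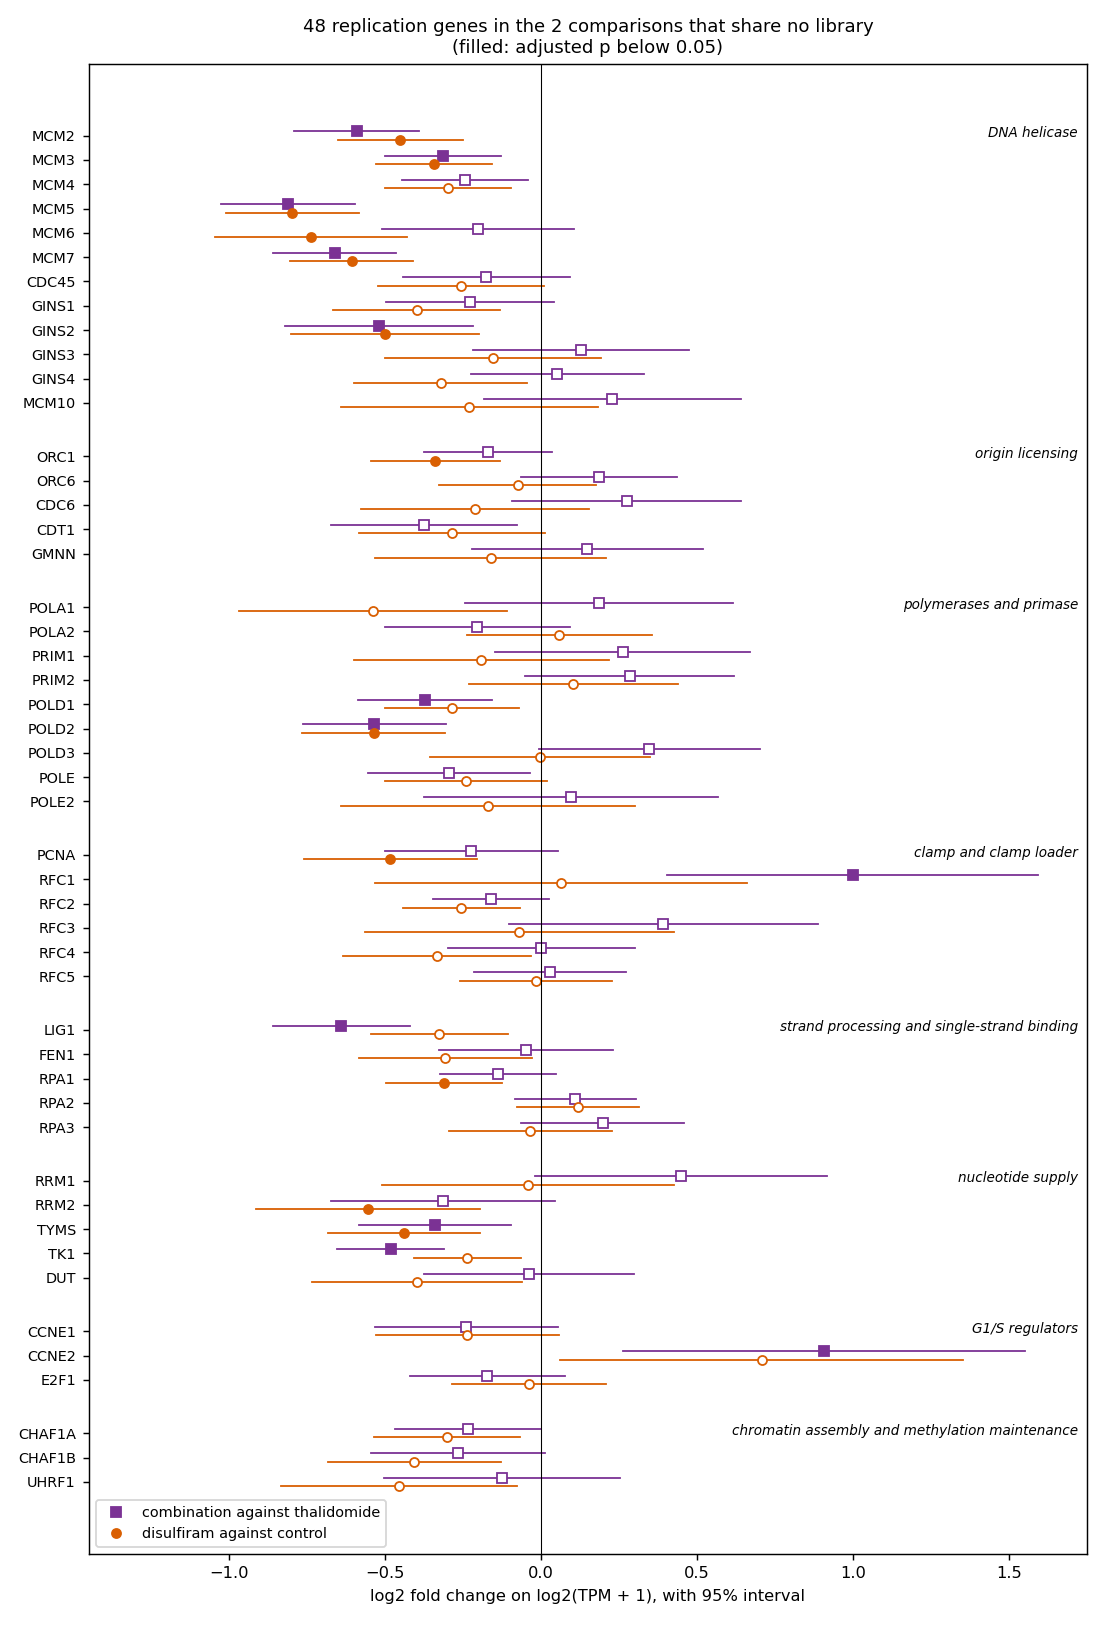
Log2 fold changes of the 48 replication genes, grouped by role down the page, with 95% confidence intervals from limma on the horizontal axis, for the combination against thalidomide and for disulfiram against control. Filled points passed an adjusted p of 0.05, and most points of the helicase group lie left of 0 in both comparisons.

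Disulfiram against control and the combination against thalidomide share no library, although their spread comes from the same fit, and 7 genes were lower in both: MCM2, MCM3, MCM5, MCM7, GINS2, POLD2 and TYMS. They made up 58.3% of the genes lower with disulfiram alone and 70.0% of those lower with disulfiram on top of thalidomide. Over all genes tested, 500 were lower in both, which is 72.1% and 45.0% of the 2 lists of lower genes. Across the 48 genes the 2 sets of fold changes had a Pearson r of 0.731 and a Spearman rho of 0.674, a description across genes that share the same libraries. The summed TPM of the 48 genes was 2720 ± 56.8 in the combination and 2587 ± 85.2 with disulfiram, against 3287 ± 331 with thalidomide and 3334 ± 139 in control (SD, n = 3 each).

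The number of calls depended on single libraries. For disulfiram against control it was 7, all lower, without the first or the third disulfiram library, where 3.00% and 2.87% of all genes were lower. It was 5, all lower, without the first or the third control library, where 2.84% and 3.19% of all genes were lower. For the combination against thalidomide it was 6 without the first and 7 without the third combination library, all lower, against 3.98% and 3.78% of all genes. For the combination against control it was 8 without the first combination library, all lower, against 3.70% of all genes. It was 7 without the third combination, the first control or the third control library, where 3.25%, 4.30% and 4.52% of all genes were lower, and 1 of the 7 without the first control library was higher. The members that kept their call without any one library were MCM2, MCM5, MCM6, MCM7 and POLD2 in disulfiram against control. For the combination, against control and likewise against thalidomide, they were MCM2, MCM5, MCM7, POLD2, LIG1 and TK1. Each other call of a member in these 3 comparisons lost the threshold without at least 1 library. Without the second library of the disulfiram group and that of the combination, 8 members were lower and 1 higher in disulfiram against control, where 5.02% of all genes were lower and 11.8% higher. The combination against control then had 15 lower and 7 higher, against 8.88% of all genes lower and 29.8% higher. The combination against thalidomide had 12 lower and 6 higher, against 9.23% of all genes lower and 33.5% higher.

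The replicative helicase, the role with the most genes, held the most calls. Of its 12 genes, 6 were lower in disulfiram against control, 7 in the combination against control and 5 in the combination against thalidomide, and 0 were higher in any of them. Of all genes, 4.52%, 6.7% and 7.24% were lower in these 3 comparisons, and 8.73%, 18.4% and 25% higher. Nucleotide supply, with 5 genes, had 2 lower in each. MCM5, a subunit at the gate through which the ring opens, had the lowest fold change of the 48 genes in all 3 comparisons. MCM5 was at 39.2, 46.1 and 44.1 TPM in the combination libraries and 42.3, 45.3 and 43.1 TPM in the disulfiram libraries, against 75.4, 69.4 and 84.8 TPM with thalidomide and 84.2, 71.4 and 74.5 TPM in control. The lowest of the 6 libraries without disulfiram lay above the highest of the 6 with it. The log2 fold change of MCM5 was -0.80 ± 0.10 (adjusted p = 0.000482) in disulfiram against control and -0.81 ± 0.10 (adjusted p = 0.000358) in the combination against thalidomide. The gene lies at chr22:35400063-35425430, plus strand (hg38).

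MCM7, at chr7:100092728-100101940, minus strand, was the most abundant of the ring subunits. Levels of MCM7 were 289, 340.0 and 311 TPM with both drugs and 307, 340.0 and 319.8 TPM with disulfiram, against 488, 448 and 555 TPM with thalidomide and 513, 457 and 506 TPM in control. Its libraries also separated by the presence of disulfiram without overlap. MCM7 changed by -0.61 ± 0.09 (adjusted p = 0.00162) in disulfiram against control and by -0.66 ± 0.09 (adjusted p = 0.000731) in the combination against thalidomide. MCM7 hosts MIR25, MIR93 and MIR106B, listed at 0 TPM, and overlaps AP4M1 on the other strand at a mean of 15.3 TPM, so its reads may be shared, as strand is not known. The MCM2 values were 75.9, 92.3 and 81.5 TPM in the combination, 92.1, 92.4 and 87.1 TPM with disulfiram, 124, 116 and 137 TPM with thalidomide and 133, 116 and 124 TPM in control. MCM2, the ring subunit that also carries histones at the fork, had no overlap between libraries with and without disulfiram. Its fold change was -0.45 ± 0.09 (adjusted p = 0.00844) in disulfiram against control and -0.59 ± 0.09 (adjusted p = 0.00146) in the combination against thalidomide. MCM2 overlaps TPRA1 on the other strand, at a mean of 35.6 TPM.

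MCM6 was called in disulfiram against control and in neither comparison of the combination. MCM6 was at 38.4, 30.3 and 40.02 TPM in the combination libraries and 31.8, 24 and 27.2 TPM in the disulfiram libraries, against 37.5, 38.6 and 49.8 TPM with thalidomide and 47.6, 43.4 and 48.6 TPM in control. Its disulfiram libraries and its combination libraries were all below control, whereas the combination libraries overlapped thalidomide. The combination against control had MCM6 at -0.36 ± 0.14 (adjusted p = 0.0782). MCM6 fell by 0.74 on the log2 scale in disulfiram against control (SE 0.14, adjusted p = 0.00616), but its value in the combination against thalidomide was -0.20 ± 0.14 (adjusted p = 0.276). The interaction term, which asks whether the effect of disulfiram differs in the presence of thalidomide, was 0.53 ± 0.20 (adjusted p = 0.466) for MCM6, so a difference between these effects was not detected. Among the ring subunits MCM6 had the lowest GC content, 43.1%, against 48.5% to 58.1% in the other ring subunits.

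MCM3 was lower in all 3 comparisons, at -0.34 ± 0.09 (adjusted p = 0.0213) in disulfiram against control, -0.36 ± 0.09 (adjusted p = 0.0125) in the combination against control and -0.31 ± 0.09 (adjusted p = 0.0186) in the combination against thalidomide. MCM4 was called in the combination against control only, at -0.33 ± 0.09 (adjusted p = 0.0246). Its values in disulfiram against control and in the combination against thalidomide were -0.30 ± 0.09 (adjusted p = 0.0533) and -0.24 ± 0.09 (adjusted p = 0.0621). The order of the ring subunits by TPM was MCM7, MCM3, MCM4, MCM2, MCM5 and MCM6 in every group. Neighbours in that order did not overlap between libraries, except MCM5 and MCM6 in the combination, where MCM5 averaged 43.1 ± 3.56 TPM and MCM6 36.2 ± 5.18 TPM (SD, n = 3). Summed over MCM2 to MCM7, the level was 794 to 842 TPM in the combination and 813 to 850 TPM with disulfiram, against 1082 to 1298 TPM with thalidomide and 1100 to 1243 TPM in control. The lowest sum without disulfiram was thus above the highest with it.

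Of the factors that activate the ring, GINS2, a GINS subunit, was lower in all 3 comparisons. It changed by -0.50 ± 0.14 (adjusted p = 0.0343) in disulfiram against control, -0.48 ± 0.14 (adjusted p = 0.028) in the combination against control and -0.52 ± 0.14 (adjusted p = 0.0171) in the combination against thalidomide. GINS2 overlaps GSE1 on the other strand, at a mean of 38.2 TPM. GINS1 was called in the combination against control only, at -0.36 ± 0.12 (adjusted p = 0.0492), and its value in disulfiram against control was -0.40 ± 0.12 (adjusted p = 0.0524). CDC45, GINS3, GINS4 and MCM10, which helps to fire the loaded helicase, passed in none of the 3 comparisons. Their values with disulfiram against control ranged from -0.32 ± 0.13 for GINS4 to -0.15 ± 0.16 for GINS3.

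**Figure D2:**
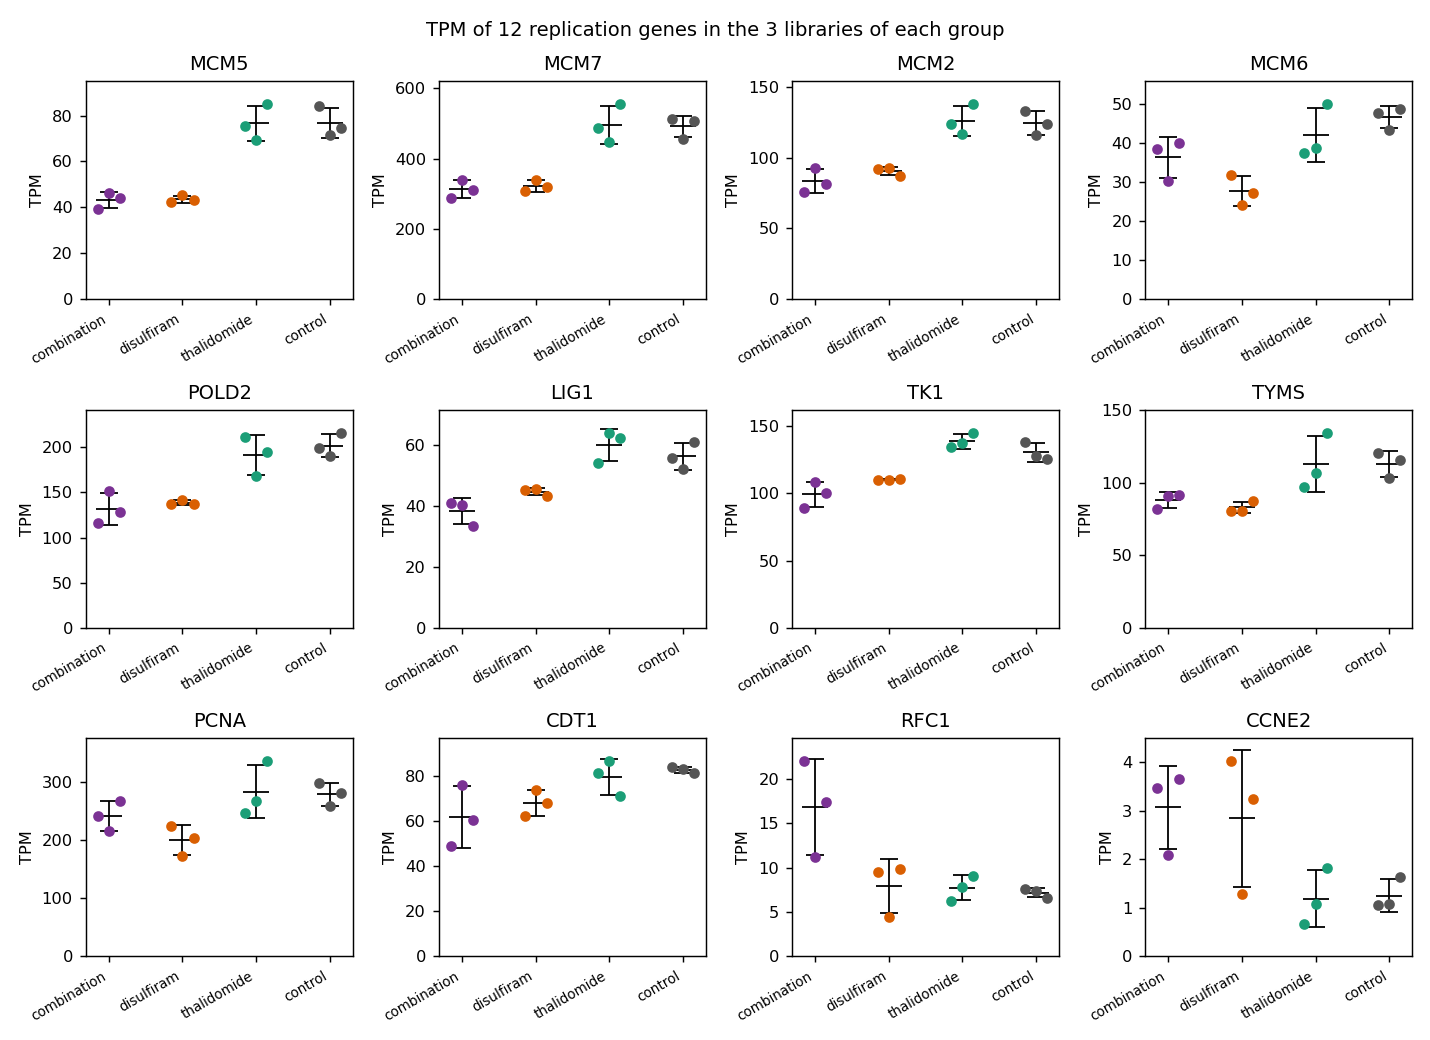
TPM of 12 replication genes in each library, with the combination, disulfiram, thalidomide and control from left to right. Points are libraries, and the lines give the group mean with its SD (n = 3). MCM5 and MCM7 separate the libraries with disulfiram from those without it, while RFC1 is higher in the combination than in thalidomide or control.

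Because many of these genes are known targets of E2F factors, their promoters were searched for the letters of E2F-type sites. The search used TTCCCGC, its variants TTCGCGC and TTGCCGC, and lastly the letters TTGGCGC on both strands in the window from 250 bases before to 50 after each RefSeq start (GRCh38.p14), and a run such as the overlapping matches in MCM6 can hold a match on each strand. Promoters were listed for 41 of the 48 genes, and 29 of the 41 held a match (70.7%), against 4553 of the 35116 promoters in the table (13.0%). The CCAAT box, letters CCAAT on either strand, was in 56.1% of the members' promoters and 34.6% of all. Each member counts with a single promoter, whereas the shares of all promoters take every entry, whether or not its gene was tested. These are unlike sets. Of the 41 genes with a listed promoter, 17 were called lower in at least 1 of the 3 comparisons and 13 of these held a match (76.5%), as did 16 of the other 24 (66.7%). A match is a run of letters and not a measured binding site. The stretches below show, for 9 members called lower, 90 bases upstream of the start, 5′ to 3′ on the gene's strand, with E2F-type letters and CCAAT boxes in capitals. They cover the last 90 bases before the start, except in MCM6 (from 151 to 62 bases upstream) and LIG1 (from 113 to 24). The first 7 hold E2F-type letters, and POLD2 and TK1 hold none in these stretches.
MCM3: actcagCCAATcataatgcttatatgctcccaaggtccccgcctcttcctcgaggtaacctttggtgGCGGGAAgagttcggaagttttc
MCM6: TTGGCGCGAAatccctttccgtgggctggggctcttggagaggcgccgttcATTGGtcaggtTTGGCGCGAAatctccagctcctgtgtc
MCM7: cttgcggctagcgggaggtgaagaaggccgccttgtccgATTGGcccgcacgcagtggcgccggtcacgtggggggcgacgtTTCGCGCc
GINS2: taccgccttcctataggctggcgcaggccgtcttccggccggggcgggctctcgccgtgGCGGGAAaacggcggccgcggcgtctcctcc
PCNA: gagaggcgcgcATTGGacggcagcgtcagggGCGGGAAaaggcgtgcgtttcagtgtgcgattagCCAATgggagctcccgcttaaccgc
LIG1: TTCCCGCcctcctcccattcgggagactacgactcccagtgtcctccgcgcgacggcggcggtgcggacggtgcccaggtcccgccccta
TYMS: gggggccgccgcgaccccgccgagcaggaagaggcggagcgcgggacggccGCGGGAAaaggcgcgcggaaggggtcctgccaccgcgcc
POLD2: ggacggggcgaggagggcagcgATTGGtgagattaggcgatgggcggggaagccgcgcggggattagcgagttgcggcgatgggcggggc
TK1: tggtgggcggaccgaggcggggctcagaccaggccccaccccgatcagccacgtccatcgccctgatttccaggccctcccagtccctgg
The stretches lie at chr6:52284743-52284832 (MCM3), chr2:135876505-135876594 (MCM6), chr7:100101398-100101487 (MCM7), chr16:85688955-85689044 (GINS2), chr20:5126623-5126712 (PCNA) and chr19:48170368-48170457 (LIG1). The others lie at chr18:657563-657652 (TYMS), chr7:44123549-44123638 (POLD2) and chr17:78187205-78187294 (TK1). TYMS is on the plus strand and the other 8 are on the minus strand.

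Origin licensing held 1 call in disulfiram against control and 1 in the combination against control. ORC1, the origin recognition subunit whose level cycles, was the one of 5 genes called with disulfiram alone, at -0.34 ± 0.09 (adjusted p = 0.0351). Levels of ORC1 were 13.2, 14.3 and 14.9 TPM with both drugs and 13.3, 12.8 and 13.6 TPM with disulfiram, against 15.1, 16.2 and 16.9 TPM with thalidomide and 17.2, 15.6 and 18.1 TPM in control. Its disulfiram libraries were all below control, and its call was lost when any one of 6 libraries was left out, with an adjusted p of up to 0.125, reached without the third control library. CDT1, which brings the ring to origins, was the single one called in the combination against control, at -0.44 ± 0.14 (adjusted p = 0.0367). The CDT1 values were 48.8, 75.8 and 60.4 TPM in the combination, 61.9, 73.6 and 67.9 TPM with disulfiram, 80.9, 86.3 and 70.7 TPM with thalidomide and 83.8, 82.8 and 81.3 TPM in control. Its first combination library was far below the second, and without it the adjusted p was 0.137. The call was also lost without the third combination library (adjusted p = 0.0994) or any one control library (adjusted p from 0.0777 to 0.0924). GMNN, the inhibitor of CDT1, was at 0.24 ± 0.17 (adjusted p = 0.288) in the combination against control, and CDC6 at 0.09 ± 0.17 (adjusted p = 0.706), neither past the threshold.

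Within DNA polymerase delta, which with PCNA copies the lagging strand, the subunits moved in opposite directions. POLD2, an accessory subunit at chr7:44114681-44124358, minus strand, had the lowest fold change of the polymerase genes in the combination against control and against thalidomide. POLD2 was at 117, 152 and 128 TPM in the combination libraries and 138, 142 and 137 TPM in the disulfiram libraries, against 212, 169 and 194 TPM with thalidomide and 199.5, 190.4 and 216 TPM in control. The libraries with disulfiram all lay below those without. POLD2 changed by -0.54 ± 0.10 (adjusted p = 0.00687) in disulfiram against control and by -0.53 ± 0.10 (adjusted p = 0.00478) in the combination against thalidomide. Levels of POLD1 were 74.2, 94.8 and 78.9 TPM with both drugs and 77.6, 88.4 and 88 TPM with disulfiram, against 110.2, 102 and 108 TPM with thalidomide and 112, 99.1 and 99.1 TPM in control. POLD1, the catalytic subunit, was called in the combination against control, at -0.32 ± 0.10 (adjusted p = 0.034), and against thalidomide, at -0.37 ± 0.10 (adjusted p = 0.0165). With disulfiram alone against control POLD1 was at -0.28 ± 0.10 (adjusted p = 0.079), short of the threshold. POLD3, another accessory subunit, was at -0.0042 ± 0.16 (adjusted p = 0.991) in that comparison.

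POLD4, the smallest subunit and not among the 48 genes, rose. It averaged 191 ± 11.9 TPM with disulfiram and 94 ± 13.2 TPM in control (SD, n = 3 each), a log2 fold change of 1.02 ± 0.12, adjusted p = 0.000336. The change of POLD4 in the combination against thalidomide was 0.90 ± 0.12, adjusted p = 0.000516. POLA1, POLA2, PRIM1 and PRIM2, which make the primers, and POLE and POLE2, of the leading-strand polymerase, passed in none of the 3 comparisons. POLA1 had the widest spread of values among these, at -0.54 ± 0.20 (adjusted p = 0.0947) in disulfiram against control and 0.18 ± 0.20 (adjusted p = 0.48) in the combination against thalidomide. PRIM1 overlaps NACA on the same strand, at a mean of 899 TPM, so its reads are uncertain.

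RFC1, the large subunit of the clamp loader, at chr4:39287456-39366375, minus strand, was higher in the combination. The RFC1 values were 22, 11.2 and 17.4 TPM in the combination, 9.54, 4.45 and 9.83 TPM with disulfiram, 6.27, 7.83 and 9.1 TPM with thalidomide and 7.62, 7.36 and 6.57 TPM in control. All combination libraries were above all thalidomide and control libraries, while the second disulfiram library, at 4.45 TPM, was the lowest of the 12. RFC1 rose by 1.08 ± 0.27 (adjusted p = 0.0169) in the combination against control and by 1.00 ± 0.27 (adjusted p = 0.019) in the combination against thalidomide. Without the first combination library the adjusted p values were 0.0743 and 0.0823, and without the third they were 0.0625 and 0.0643. They were also past 0.05 without the third control library, at 0.0539, for the comparison with control, and without the first thalidomide library, at 0.0745, for that with thalidomide. RFC1 in disulfiram against control was at 0.06 ± 0.27 (adjusted p = 0.912), and its interaction term was 0.93 ± 0.39 (adjusted p = 0.466). The 95% interval of that interaction ran from 0.09 to 1.77, but its adjusted p over all genes missed the threshold.

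PCNA, the sliding clamp, was the other called gene of this group, in disulfiram against control. Levels of PCNA were 242, 216 and 266 TPM with both drugs and 224, 173 and 203 TPM with disulfiram, against 247, 268 and 335 TPM with thalidomide and 297, 258 and 282 TPM in control. Its disulfiram libraries were all below control, and its combination libraries overlapped control and thalidomide. PCNA changed by -0.48 ± 0.13 (adjusted p = 0.0272) in disulfiram against control and was at -0.22 ± 0.13 (adjusted p = 0.186) in the combination against thalidomide. Its call was lost without the second disulfiram library (adjusted p = 0.0788), and likewise without the third disulfiram, the first control or the third control library (adjusted p up to 0.0965). RFC2 to RFC5, the small subunits of the loader, passed in none of the 3 comparisons and ranged from -0.33 ± 0.14 for RFC4 to -0.02 ± 0.11 for RFC5 in disulfiram against control.

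Among strand processing genes, LIG1, the ligase that joins Okazaki fragments, was lower in the combination. LIG1 was at 41.1, 40.5 and 33.4 TPM in the combination libraries and 45.1, 45.5 and 43.4 TPM in the disulfiram libraries, against 54.2, 64 and 62.2 TPM with thalidomide and 55.8, 52.3 and 61 TPM in control. The combination libraries were all below those with thalidomide and control, and the disulfiram libraries lay between. LIG1 changed by -0.55 ± 0.10 (adjusted p = 0.00448) in the combination against control and by -0.64 ± 0.10 (adjusted p = 0.00154) in the combination against thalidomide. Disulfiram alone left LIG1 at -0.33 ± 0.10 (adjusted p = 0.0525) against control, short of the threshold. RPA1, the large subunit of the single-strand binding protein, was called in disulfiram against control, at -0.31 ± 0.09 (adjusted p = 0.032). Levels of RPA1 were 37.1, 35 and 38.6 TPM with both drugs and 34.6, 33 and 34.7 TPM with disulfiram, against 36.5, 43.2 and 42.7 TPM with thalidomide and 44, 41 and 42.9 TPM in control. The disulfiram libraries were all below control, and leaving out any one disulfiram or control library ended the call. RPA2, RPA3 and FEN1, the flap nuclease, passed in none of the 3 comparisons, and FEN1 overlaps FADS2 on the same strand, at a mean of 256 TPM, so its reads are uncertain.

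In nucleotide supply, TYMS, which makes thymidylate, was lower in all 3 comparisons. The TYMS values were 81.8, 90.9 and 91.8 TPM in the combination, 80.6, 80.6 and 87.3 TPM with disulfiram, 97.2, 107 and 134 TPM with thalidomide and 120.0, 103 and 115 TPM in control. TYMS changed by -0.44 ± 0.11 (adjusted p = 0.0235) in disulfiram against control and by -0.34 ± 0.11 (adjusted p = 0.0374) in the combination against thalidomide. All its libraries with disulfiram were below all without it, although its call was lost when any one of 4 libraries was left out, in each of the 3 comparisons. TYMS overlaps ENOSF1 on the other strand, at a mean of 18.2 TPM. TK1 was at 89.4, 108 and 101 TPM in the combination libraries and 110.2, 110.2 and 111 TPM in the disulfiram libraries, against 134, 137 and 145 TPM with thalidomide and 138, 127 and 125 TPM in control. TK1, the thymidine salvage kinase, was likewise lower in every library with disulfiram than in every library without it. TK1 was called in the combination against control, at -0.39 ± 0.08 (adjusted p = 0.00648), and against thalidomide, at -0.48 ± 0.08 (adjusted p = 0.00182), and was at -0.24 ± 0.08 (adjusted p = 0.0684) in disulfiram against control.

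Of the subunits of ribonucleotide reductase, which makes deoxynucleotides, RRM2 was called and RRM1 was not. Levels of RRM2 were 48.4, 44.1 and 44.7 TPM with both drugs and 46.3, 32.1 and 44.3 TPM with disulfiram, against 49.6, 51.4 and 72.9 TPM with thalidomide and 52.4, 60.8 and 67 TPM in control. RRM2, its S phase subunit, was called in disulfiram against control, at -0.55 ± 0.16 (adjusted p = 0.0452), and lost its call when any one of 9 libraries was left out. RRM1, the large subunit, was at -0.04 ± 0.21 (adjusted p = 0.928) in that comparison and at 0.45 ± 0.21 (adjusted p = 0.124) in the combination against thalidomide. Processed pseudogenes of RRM2, PCNA and DUT reached at most 0.161 TPM on average. DUT, which removes dUTP, was at -0.40 ± 0.15 (adjusted p = 0.114) in disulfiram against control.

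Of the regulators of entry into S phase, CCNE2, an E cyclin, was higher in the combination against thalidomide. CCNE2 was at 3.48, 2.08 and 3.65 TPM in the combination libraries and 4.02, 1.28 and 3.25 TPM in the disulfiram libraries, against 0.67, 1.07 and 1.82 TPM with thalidomide and 1.05, 1.07 and 1.64 TPM in control. CCNE2 overlaps INTS8 and NDUFAF6 on the other strand, at means of 12.0 and 18.9 TPM, above its own level, so its reads are uncertain. All its combination libraries were above those with thalidomide, at low levels where the pseudocount of 1 makes the fold change smaller. CCNE2 rose by 0.91 ± 0.30 (adjusted p = 0.0365) in that comparison, and the adjusted p was 0.115 to 0.135 without the first or the third combination library or the first thalidomide library, and 0.0801 without the second thalidomide library. CCNE2 in disulfiram against control was at 0.71 ± 0.30 (adjusted p = 0.142). After median-of-ratios scaling the adjusted p in the combination against thalidomide was 0.0577, and after a GC correction 0.211. CCNE1, the other E cyclin, and E2F1, which activates many replication genes, passed in none of the 3 comparisons. Levels of E2F1 were 38.7, 51.2 and 45 TPM with both drugs and 53.3, 47.9 and 48.1 TPM with disulfiram, against 50.1, 45.1 and 56.8 TPM with thalidomide and 50, 49.1 and 54.3 TPM in control. The E2F1 libraries of all groups overlapped, and its 95% interval in disulfiram against control was -0.29 to 0.21 on the log2 scale.

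The chromatin genes are CHAF1A and CHAF1B, which place histones on new DNA, and UHRF1, which maintains DNA methylation behind the fork. Against control, disulfiram libraries had them at -0.30 ± 0.11 (adjusted p = 0.0881), -0.41 ± 0.13 (adjusted p = 0.0557) and -0.45 ± 0.17 (adjusted p = 0.108), none past the threshold. CHAF1A was at 35.7, 44.8 and 37 TPM in the combination libraries and 38.3, 36.9 and 39 TPM in the disulfiram libraries, against 44.9, 41.6 and 52.2 TPM with thalidomide and 44.8, 46.1 and 50.5 TPM in control. The disulfiram libraries of CHAF1A, the more abundant of the pair, were all below control, while its combination libraries overlapped thalidomide. CHAF1B was called in the combination against control, at -0.38 ± 0.13 (adjusted p = 0.0478). The CHAF1B values were 4.45, 4.92 and 4.92 TPM in the combination, 4.9, 5.28 and 3.88 TPM with disulfiram, 6, 5.51 and 6.3 TPM with thalidomide and 6.05, 6.3 and 7.17 TPM in control. Its combination libraries were all below control, and its call was lost when any one of 10 libraries was left out.

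Thalidomide alone gave no call. In thalidomide against control 0 of the 48 were called by limma, as were 0 of all genes in either direction (0%), and 0 of the 48 had an unadjusted p below 0.05, against 5.69% of all genes. The fold changes of the 48 ran from -0.28 ± 0.20 for POLA1 to 0.19 ± 0.22 for POLE2, with a median of -0.05. The combination was set against disulfiram to ask what thalidomide added. By limma 0 of the 48 were called, against 0.00651% of all genes called lower and 0% higher, and 7 had an unadjusted p below 0.05 (14.6%, against 17.1% of all genes). The smallest adjusted p was 0.256, for RFC1, whose log2 fold change was 1.02 ± 0.27. For the interaction 0 of the 48 and 0% of all genes were called by limma. Of the 48, 5 had an unadjusted p below 0.05 (10.4%, near the 10.3% of all genes). No difference between the effect of disulfiram with and without thalidomide was therefore detected for these genes, and the wide intervals do not show that the effects were equal.

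The fold changes of these genes also moved with the GC content of their longest transcript, more so in the combination than with disulfiram alone. Across the 48 genes the rank correlation of fold change with GC content was -0.327 in disulfiram against control, against 0.001 over all genes with a GC value. With the second library of each group with disulfiram left out, whose GC trends relative to their own group mean differed in sign from the others, these were -0.484 and -0.196. Over all 12 libraries, the members' rank correlation was -0.720 in the combination against control and -0.779 in the combination against thalidomide, against -0.439 and -0.493 over all genes. By GC class, 6 of the 19 members with a GC content of at least 50% were lower in disulfiram against control, against 6.15% of all such genes, and 6 of the 29 members below 50%, against 3.13%. The counts in the combination against thalidomide were 8 of 19, against 12.8%, and 2 of 29, against 2.48%. With GC content removed from each library, 26 members were lower and 1 higher in disulfiram against control, where 11.1% of all genes were then lower. The combination against thalidomide then had 23 lower and 1 higher, with 13.4% of all genes lower.

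**Figure D3:**
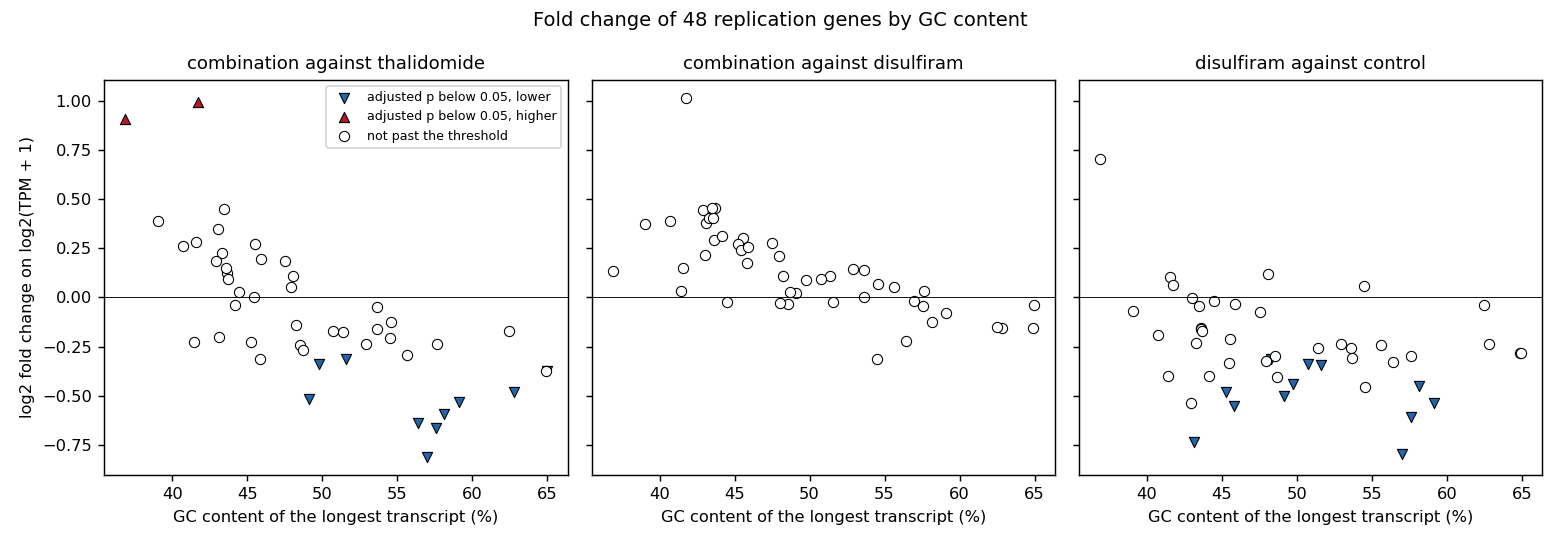
Log2 fold change of each of the 48 genes against its GC content in percent, for the combination against thalidomide, the combination against disulfiram, and disulfiram against control from left to right, with filled triangles for called genes. Both panels of the combination slope down with GC content, while in disulfiram against control 43 of the 48 points lie below 0.

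Scaling mattered as well, since TPM are shares of a fixed total. All genes had a median log2 fold change of 0.20 in the combination against control and 0.22 in the combination against thalidomide, and relative to it the members' medians were -0.39 and -0.38. With median-of-ratios scaling 27 members were called in the combination against thalidomide, 26 lower and 1 higher, in place of 10 lower and 2 higher. Among all genes the split was then 1811 higher and 2254 lower, in place of 3834 higher and 1112 lower. In disulfiram against control that scaling gave 768 higher and 969 lower genes, in place of 1340 and 694, and in the combination against control 1351 higher and 1877 lower, in place of 2823 and 1029. No call of a member turned round under any scaling that was run.

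Other genes of replication and the cell cycle were counted from lists chosen by name. Of 37 other replication factors, 1 was lower and 1 higher in disulfiram against control, 2 lower and 4 higher in the combination against control, and 1 lower and 11 higher in the combination against thalidomide. The shares of all genes were 4.52% lower and 8.73% higher, 6.7% lower and 18.4% higher, and 7.24% lower and 25% higher in these comparisons. The 11 of 37 higher genes are thus close to the share of all genes. SSRP1, a histone chaperone subunit, was the lower one with disulfiram, at -0.37 ± 0.08, adjusted p = 0.00928. The median of this list was 0.01 in disulfiram against control, beside -0.28 for the 48 genes and 0.09 for all genes. Of 12 checkpoint genes, 4 were higher in the combination against thalidomide, near the 25% of all genes, and their fold changes in disulfiram against control ran from -0.42 to 0.35 without a call. Among the higher ones was RAD17, which loads the checkpoint clamp, at 1.01 ± 0.27, adjusted p = 0.0159, a call that ended without the first combination, the third combination or the first thalidomide library (adjusted p up to 0.0688). Of 22 mitotic genes, 3 were lower and 0 higher in disulfiram against control, and 2 lower and 5 higher in the combination against thalidomide, where 7.24% of all genes were lower and 25% higher. In the combination against control 4 of them were lower and 2 higher, where 6.7% of all genes were lower and 18.4% higher. CDC20, an activator of the anaphase ligase, was at -0.45 ± 0.12, adjusted p = 0.0256, and CCNB1, a mitotic cyclin, at -0.40 ± 0.09, adjusted p = 0.0153, both in disulfiram against control. In that comparison the call of CDC20 ended when any one of 5 libraries was left out (adjusted p up to 0.0968), and that of CCNB1 without the third control library (adjusted p = 0.0601). CDC20 was also lower in the combination against control, at -0.62 (adjusted p = 0.00474), and against thalidomide, at -0.51 (adjusted p = 0.00936). CCNB1 was at -0.28 (adjusted p = 0.0472) and -0.14 (adjusted p = 0.25) there. In the combination against thalidomide the medians were 0.36 for the other replication factors, 0.38 for the checkpoint genes and 0.31 for the mitotic genes, beside 0.22 for all genes.

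Of 28 tested genes that control the step from G1 to S, 5 were lower and 3 higher in disulfiram against control, and 5 lower and 5 higher in the combination against thalidomide. Of all genes, 4.52% were lower and 8.73% higher in the first comparison, and 7.24% lower and 25% higher in the second. Among those lower with disulfiram were CCND1, a D cyclin that starts the inactivation of RB1, and SKP2, which marks a cycle inhibitor for destruction. CCND1 averaged 50.1 ± 2.85 TPM with disulfiram and 84.7 ± 3.2 TPM in control (SD, n = 3 each), a log2 fold change of -0.75 ± 0.08, adjusted p = 0.000178. SKP2 averaged 49 ± 6 TPM with disulfiram and 87 ± 2.27 TPM in control, a log2 fold change of -0.82 ± 0.11, adjusted p = 0.00108. The 3 higher genes were CDKN2B, CDKN1A and CDKN2D, of the 6 tested inhibitors of the cyclin-dependent kinases on the list, while CDKN1B, at 0.23, CDKN2A, at 0.16, and CDKN2C, at -0.23, did not pass. CDKN2B averaged 9.45 ± 1.94 TPM with disulfiram and 3.51 ± 1.31 TPM in control (1.24 ± 0.20, adjusted p = 0.00232). CDKN1A averaged 65.5 ± 4.07 TPM with disulfiram and 41.2 ± 7.73 TPM in control (0.67 ± 0.19, adjusted p = 0.0419), a call that ended when any one of 8 libraries was left out, with an adjusted p of up to 0.138. In the combination against thalidomide CDKN2B was again higher, at 1.34 ± 0.20, adjusted p = 0.00113, while CDKN1A, at 0.28, and CDKN2D, at 0.07, did not pass. The other 4 higher genes there were MYC, a growth-promoting transcription factor, at 0.99 ± 0.24, adjusted p = 0.0112, and RB1, CDK6 and RBL1, at 0.77, 0.66 and 0.50. None of these 4 passed in disulfiram against control or in the combination against control. MYC was at 0.34 (adjusted p = 0.392) and 0.36 (adjusted p = 0.262) in those comparisons. The call of RB1 ended when any one of 5 libraries was left out and that of CDK6 when any one of 3 was.

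**Figure D4:**
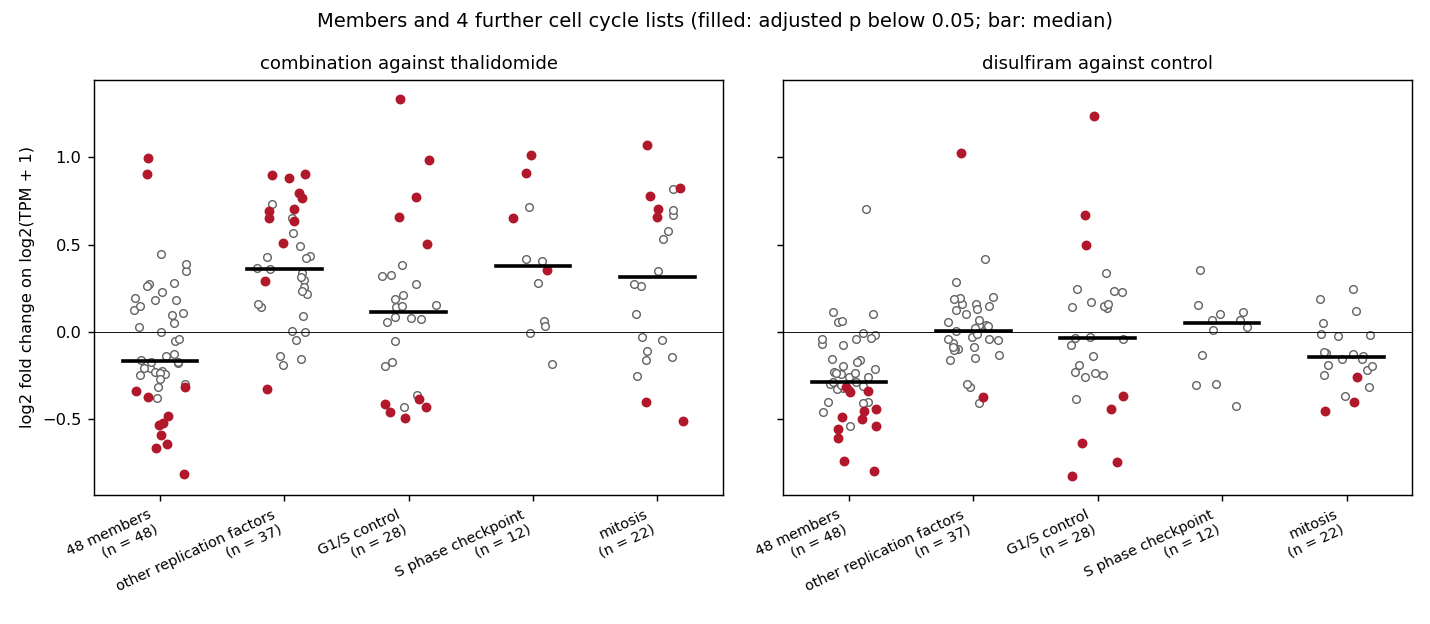
Log2 fold change of each gene of the 48 and of 4 further lists, for the combination against thalidomide and for disulfiram against control, with filled points for called genes and a bar at each list's median. In disulfiram against control the 48 genes have the lowest median, -0.28, and the 37 other replication factors have a median of 0.01.

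The mean of MCM2 to MCM7 was compared with every other gene over the 12 libraries by the Pearson correlation of log2(TPM + 1), a description that shares the group differences and the libraries. Outside the 48 genes the highest values were 0.981 for NQO1, a quinone reductase, 0.979 for UNG, which removes uracil from DNA, 0.978 for ZFP36L2, 0.974 for TUBA1B and 0.972 for NID1. UNG averaged 35.6 ± 1.57 TPM in the combination and 35.3 ± 3.74 TPM with disulfiram, against 70.7 ± 10.99 TPM with thalidomide and 66.4 ± 5.48 TPM in control (SD, n = 3 each). Among the members outside the ring, GINS2 followed it most closely, at 0.965, then TYMS at 0.949, ORC1 at 0.914 and POLD2 at 0.905.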

How the data were processed

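The deposited table holds TPM per gene for 12 Huh7 libraries, computed by the authors, with HISAT2 2.0, StringTie 1.3.0 and hg38 named per the submitters' processing notes. The extraction text in the labels describes droplet libraries from dissociated tumour tissue, which is at odds with 1 column per treated culture. Library preparation, strand and depth are therefore not given in the sources used here, reads of overlapping genes and near-identical copies are uncertain, and no counting interval can be given. Symbols, coordinates and GC content came from GENCODE 29.

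Genes with at least 1 TPM in at least 3 libraries were kept (15352). Differences of log2(TPM + 1) were tested with limma 3.58.1 (R 4.3.3), with its mean-variance trend, the 4 groups in 1 fit and two-sided tests, with p-values adjusted by Benjamini-Hochberg over these genes. The pseudocount of 1 understates changes of low genes. The code was tested on simulated data. Comparisons were each drug and the combination with control, the combination with each drug, and the interaction. Alternatives changed the pseudocount, filter, scaling, libraries, weights, GC content, samples in the fit and pairing.

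The members, roles, lists and tests were chosen with earlier results of these data known. Per role, values by library are given for up to 4 members past the threshold, ordered by their smallest adjusted p over disulfiram against control and the combination against control or thalidomide, or for the most abundant member where fewer than 2 passed. From each further list up to 4 called genes of largest change were eligible. Members below the threshold that are given by fold change alone were picked for their role. Promoters are RefSeq entries.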

Additional observations from a re-analysis of the deposited data

How the results depend on the processing

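In disulfiram against control the 12 called members became 21 with median-of-ratios scaling, 24 with limma's array weights and 27 with the GC correction, and 5 to 15 when 1 library was left out. In the combination against control the 15 became 9 with no filter on low values, 24 with median-of-ratios scaling, 26 with array weights (17 lower, 9 higher) and 26 with the GC correction, and 7 to 17 with 1 library left out. In the combination against thalidomide the 12 became 27 by median-of-ratios scaling, 21 after quantile normalization (20 lower, 1 higher), 20 with array weights (13 lower, 7 higher) and 24 with the GC correction, and 6 to 16 with 1 library left out. In the combination against disulfiram 0 became 12 with array weights (2 lower, 10 higher), where 5.24% of all genes were then lower and 13.7% higher, a fit whose weights gave a warning about convergence, and stayed at 0 otherwise. The shares of all genes moved too: called lower were 6.31%, 7.76% and 11.1% in disulfiram against control under median-of-ratios scaling, array weights and the GC correction, 12.2%, 13.1% and 13.1% in the combination against control, and 14.7%, 11.2% and 13.4% in the combination against thalidomide. It was 2.30% in the combination against control with no filter and 13.1% in the combination against thalidomide after quantile normalization. With array weights 17.5%, 40.1% and 37.9% of all genes were higher in the same 3 comparisons. The causes were not tested. Thalidomide against control and the interaction stayed at 0 under every alternative that was run, and no result of a member turned round past the threshold. Fitting only the groups compared gave no value for the interaction. With the replicate number as a block, the counts were 12 in disulfiram against control, all lower, and 15 in the combination against control (13 lower, 2 higher). They were 13 in the combination against thalidomide (11 lower, 2 higher) and 0 in the others. Of all genes, 4.03%, 6.22% and 6.7% were then lower in these 3 comparisons, and 7.61%, 17.1% and 23.5% higher. The replicate numbers did not pair the libraries throughout. Deviations from the group mean correlated at -0.154 to 0.369 between libraries sharing a number and at -0.299 to 0.229 between others. A library's best match in another group mostly had another number. The highest value, 0.369, was between the second combination and second disulfiram libraries. Between the first libraries of these groups it was 0.211, and between the third 0.030. Under every alternative that was run, 5 of the 12 calls stayed past the threshold in disulfiram against control, 6 of 15 in the combination against control and 6 of 12 in the combination against thalidomide. With 3 libraries a group and no read counts, small changes and those of low genes could not be resolved.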
